A study of Homo sapiens with 24 samples.

Results

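The alanine tRNA genes are the nuclear genes for the transfer RNAs that carry alanine to the ribosome. They were taken as the rows of the small RNA count table that lie outside the mitochondrial genome, have the class tRNA and have a first name beginning with tRNA-Ala. The same rows were followed in the ATAC-seq table. This gave 47 genes among 175946 features, beside 452 nuclear tRNA genes named for other isotypes.

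The study overexpressed nuclear lamins in HEK293, a human embryonic kidney line obtained from ATCC and labelled wild type. The groups were eGFP as the control (labelled GFP), LMNA (the gene for the A-type lamins A and C), LMNB1 (lamin B1) and LMNB2 (lamin B2). Each group had 3 small RNA libraries, made from RNA enriched by size, and 3 of ATAC-seq, 24 in all. ATAC-seq counts fragments cut by a transposase where chromatin is open. The cells for the 2 assays were collected separately, and the labels give all small RNA libraries as batch 1 and all ATAC libraries as batch 2. The vector, the length of the overexpression, and whether the cells were pools or clones are not given in the sources used here, and the level of the overexpressed lamins was not checked. Nothing in the labels says that replicates came from separate cultures, so the p-values measure only the spread between these samples.

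As background, tRNA genes are transcribed by RNA polymerase III from a promoter inside the gene, whose A and B boxes are bound by the factor TFIIIC. The primary transcript is trimmed at its ends and heavily modified, and alanyl-tRNA synthetase charges the mature tRNA with alanine. Alanine codons are read by tRNAs with the anticodons AGC, CGC and TGC, and the AGC anticodon is modified to inosine in the mature tRNA. Lamins form the meshwork under the inner nuclear membrane, which contacts mostly closed chromatin. Small RNA libraries capture both tRNAs and their fragments, and these counts cannot tell the 2 apart. In bulk samples, fewer cells making an RNA and less RNA per cell cannot be told apart either.

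By anticodon, 33 of the 47 genes were AGC, 5 were CGC and 9 were TGC. Chromosome 6 held 38 of them (GRCh38 throughout), in 3 blocks. The first block, between 26.55 and 26.83 Mb, had 14 AGC genes and 1 CGC gene. The second block, between 28.61 and 28.86 Mb, was the mixed one, with 8 AGC, 3 CGC and 5 TGC genes. The third, between 57.79 and 57.87 Mb, had 7 AGC genes. The other 9 lay on chromosomes 1, 2, 5, 8, 11, 12 and 14. Each deposited interval ran 25 bp beyond the gene on each side, and after these were removed 37 of the 47 matched a RefSeq tRNA exactly. The genes themselves were 73 bp long in 24 cases, 72 bp in 21 and 71 bp in 2. Length and position went together: 14 of the 15 genes of the first block and all 7 of the third were 73 bp long, and 15 of the 16 of the second were 72 bp long. By RefSeq, 5 genes lay within the bounds of a protein-coding gene (OTUD7B, AGBL5, GPD2, SCAND3 and TRIM55) and 17 within those of a lncRNA.

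Many of these genes are copies of each other. The 47 rows carried only 31 names, with 13 names used on 29 rows, and 23 rows shared an RNA identifier with another row. Copies of a name are numbered here in the order in which they stand in the table, as in AGC-13-1 #3. In the first block, 6 pairs of copies lay on opposite strands and mirrored each other around a common midpoint. The members of a mirrored pair had nearly the same mean counts: their ratios ran from 0.935 to 1.15 in the small RNA libraries and from 0.957 to 1.02 in the ATAC libraries. TGC-2-1 #1 on chromosome 12 and TGC-2-1 #2 on chromosome 5 also shared an identifier. Their small RNA mean counts were 711.42 and 710.25, whereas their ATAC mean counts were 193.75 and 870.0, a 4.49-fold difference. How reads with several equal matches were assigned is not given in the sources used here, so near-identical copies are uncertain as separate measurements, and the small RNA values of such copies are not independent.

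The small RNA libraries held 132507051 to 195074742 counts and the ATAC libraries 156043245 to 290158229, of which 24.5 to 47.5% in ATAC were mitochondrial, least in LMNB2 and most in GFP. After the filter on low counts 33893 small RNA features and 163786 ATAC windows were tested. The microRNAs of the MIR17 to MIR92A1 cluster, abundant in dividing cells, were detected in every small RNA library. The defining microRNAs of blood, liver, muscle and fibroblasts (MIR142, MIR223, MIR150, MIR122, MIR1-1, MIR133A1, MIR206, MIR143 and MIR145) and MIR124 of neurons were at or under 0.059 CPM (counts per 1000000 counts of the scaled library). MIR9-1 of neurons, MIR126 of endothelium and MIR375 of endocrine cells were above 0 and highest in GFP replicate 3. Their part in the results was not tested.

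A pair of small RNA libraries stood apart in the alanine tRNA genes. GFP replicate 3 exceeded the mean of GFP replicates 1 and 2 by a median of 2.75-fold over the 43 genes tested, and 29 of the 43 were above 2-fold. LMNA replicate 3 exceeded its group by a median of 1.61-fold, with 18 of 43 above 2-fold. Corresponding medians for the third replicates of LMNB1 and LMNB2 were 1.05 and 1.14, with no gene above 2-fold. For the other tRNA genes the GFP and LMNA medians were 1.48 and 1.06.

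The excess in GFP replicate 3 was uneven among the alanine genes. Its median was 8.27-fold over the 9 TGC genes, 7.81-fold over the 5 CGC genes and 2.23-fold over the 29 AGC genes tested. It was 5.60-fold over the genes of 72 bp and 1.86-fold over those of 73 bp. In LMNA replicate 3 the same split gave 2.46-fold and 1.13-fold. Among the 22 isotypes with more than 0.05% of tRNA counts, alanine had the highest ratio of replicate 3 to replicates 1 and 2 in GFP and in LMNA, at 2.92 and 2.27 for its share. The small RNA shares, counts of genes, medians and most named differences are therefore given with and without these 2 libraries.

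**Figure D1:**
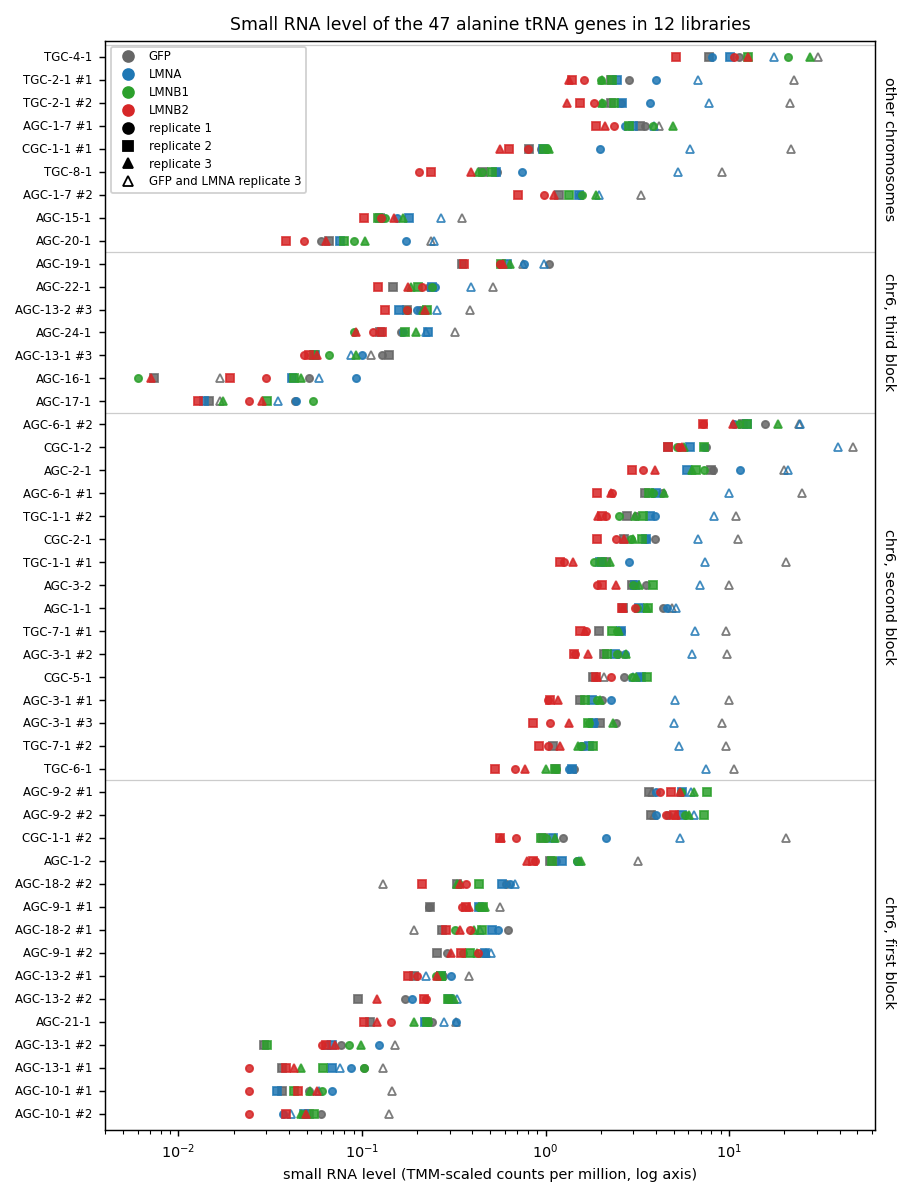
Small RNA level of each alanine tRNA gene (CPM, log scale) in each library by group, with the genes divided by location and ordered by mean level within each location. Open triangles mark replicate 3 of GFP and LMNA. The levels run from a mean of 0.028 CPM (AGC-17-1) to 14.6 CPM (TGC-4-1), and each open triangle lies above the mean of its group's other replicates for 15 of the 16 genes of the second block.

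The alanine genes gave a small part of the tRNA counts in the small RNA libraries, although alanine has more genes than any other isotype. Their share of all counts on named nuclear tRNA genes was 1.01, 0.979 and 2.90% with GFP and 0.862, 0.852 and 1.94% with LMNA. With LMNB1 it was 0.944, 0.934 and 1.09%, and with LMNB2 0.665, 0.635 and 0.716%. All 3 LMNB2 libraries were below the other 9, and so also below the 7 left without the 2 that stood apart. The order against the other 9 held for 5 of the 24 isotype labels in all, the others being cysteine, glycine, serine and threonine. In ATAC the alanine share was between 6.03 and 6.33% in every library.

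**Figure D2:**
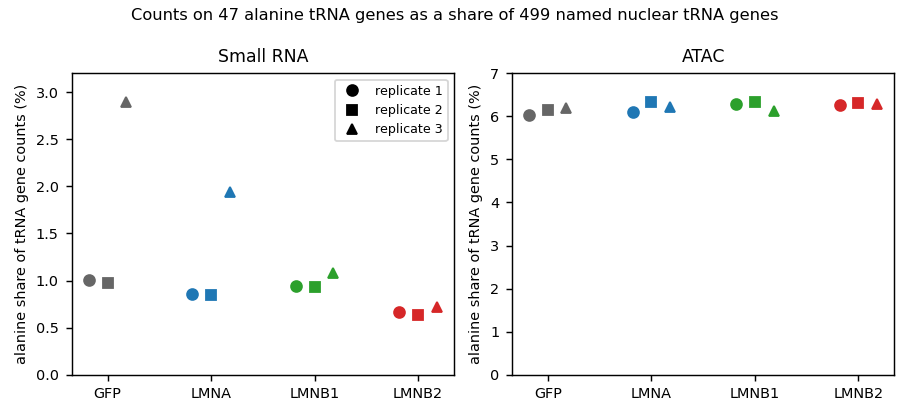
Alanine share of the counts on named nuclear tRNA genes (percent, each axis from 0) in each small RNA and ATAC library by group. Triangles mark replicate 3 of each group. The small RNA share is 0.635 to 0.716% in LMNB2 and 2.90% in GFP replicate 3, while the ATAC share stays between 6.03 and 6.33%.

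Levels differed more between genes than between groups. Since the genes differ by at most 2 bp in length, their CPM can be set beside each other. The 5 highest genes held 42.2% of the alanine small RNA counts. These were TGC-4-1 (chr12:124939941-124940062) at a mean of 14.6 CPM, AGC-6-1 #2 (chr6:28812047-28812168) at 13.8, CGC-1-2 (chr6:28673811-28673932) at 12.2, AGC-2-1 (chr6:28607131-28607252) at 8.73 and AGC-6-1 #1 (chr6:28658212-28658333) at 5.76. By anticodon, AGC genes held 49.0%, TGC genes 31.5% and CGC genes 19.5% of the counts. The second block held 60.4%, the first 13.1%, the third 1.06% and the genes elsewhere 25.5%. GFP replicate 3 and LMNA replicate 3 supplied 43.3% of these counts. Without them AGC genes held 56.6%, TGC genes 29.0% and CGC genes 14.5%, and the same 5 genes 42.9%. The second block then held 57.6%, the first 16.1%, the third 1.36% and the genes elsewhere 24.96%.

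The order among the highest genes rests in part on the libraries that stood apart. CGC-1-2 had 7.49, 4.66 and 47.5 CPM with GFP, 7.29, 6.14 and 39.1 with LMNA, 5.22, 7.34 and 5.67 with LMNB1, and 5.32, 4.65 and 5.56 with LMNB2. Outside GFP replicate 3 and LMNA replicate 3 it thus stayed between 4.65 and 7.49 CPM. The 2 LMNA libraries left lay above all of LMNB2, and the other pairs of groups overlapped. TGC-4-1 had 11.3, 7.74 and 30.3 CPM with GFP, 8.10, 10.1 and 17.5 with LMNA, 20.9, 12.7 and 27.6 with LMNB1, and 10.6, 5.16 and 12.7 with LMNB2. It was the one of the 5 with its highest group median in LMNB1. Its LMNB2 to LMNB1 difference was a log2 fold change of -1.11 ± 0.56 (SE), with an edgeR adjusted p of 0.369, and -1.12 ± 0.39 without the 2 libraries (adjusted p of 0.133). Without them the mean of CGC-1-2 was 5.93 CPM, behind TGC-4-1 at 12.7, AGC-6-1 #2 at 11.8 and AGC-2-1 at 6.38. The 4 genes with too few small RNA counts to test were AGC-10-1 #1 and #2, AGC-16-1 and AGC-17-1.

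Against GFP, no alanine gene changed in the LMNA or LMNB1 small RNA libraries at an adjusted p under 0.05 (edgeR quasi-likelihood test, Benjamini-Hochberg over all features, as in every test below). The background was 0.0% of features called for LMNA and 0.0384% for LMNB1. At an unadjusted p under 0.05 there were 3 alanine genes for LMNA and 8 for LMNB1, beside 5.46% and 5.51% of features. DESeq2 called 0 in both, where it called 0.207% and 0.062% of features and gave no adjusted p for 21 and 3 of the 43. The median log2 fold change of the 43 genes was -0.19 for LMNA and -0.50 for LMNB1, beside 0.15 and 0.10 for the other tRNA genes. Without the 2 libraries that stood apart, these alanine medians were 0.29 and 0.15, so their sign rested on those libraries. In that fit AGC-9-1 #1 in the first block was called higher in both, by 0.96 ± 0.21 on the log2 scale in LMNA and 1.01 ± 0.19 in LMNB1 (edgeR adjusted p of 0.0253 in each), where 0.86% and 0.228% of features were called. GFP replicate 3, left out there, had 0.563 CPM for AGC-9-1 #1, above every LMNA and LMNB1 library. The mirrored copy AGC-9-1 #2 was not called.

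CGC-5-1 (chr6:28695907-28696028) had the lowest p of the alanine genes in the comparison of LMNA with GFP. It had 2.69, 1.81 and 2.08 CPM with GFP, 3.23, 3.32 and 2.98 with LMNA, 2.97, 3.57 and 3.10 with LMNB1, and 2.29, 1.89 and 1.90 with LMNB2. LMNA and LMNB1 were above every GFP and LMNB2 library. The log2 differences from GFP were 0.54 for LMNA and 0.55 for LMNB1, with edgeR adjusted p of 0.882 and 0.777. Without the 2 libraries that stood apart they were 0.61 and 0.57, with adjusted p of 0.141 and 0.175. AGC-9-2 #1 and #2, a mirrored pair, differed from GFP by 0.59 and 0.63 in LMNB1, with edgeR adjusted p of 0.861 and 0.777, and by 0.56 and 0.65 without the 2 libraries, with adjusted p of 0.270 and 0.119. None of these 3 genes passed either test.

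LMNB2 gave the lowest small RNA levels of alanine genes. The summed level of the 47 genes was 108, 83.1 and 384 CPM with GFP, 106, 98.2 and 242 with LMNA, 105, 105 and 125 with LMNB1, and 70.4, 60.4 and 78.0 with LMNB2. Every LMNB2 library was below the other 9. Gene by gene, this held for 20 of the 43 tested, beside 2.98% of all features and 34 of the 420 other tRNA genes tested (8.10%). Without the 2 libraries that stood apart, LMNB2 was below the other 7 for 20 of the 43 and for 37 of the 420. The share of all features was not counted for this easier rule, and the 2.98% belongs to the rule against the other 9. Of the MIR17 to MIR92A1 cluster, 3 of 6 microRNAs were likewise lowest in all LMNB2 libraries, and its summed level was 32.7 to 34.4 CPM there, beside 43.7 to 73.6 for GFP, 39.0 to 61.8 for LMNA and 48.3 to 52.0 for LMNB1. Its part in the result was not tested. The comparisons with LMNB2 below share the LMNB2 libraries, and those with GFP share the GFP libraries.

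Few single genes passed the test. In LMNB2 against GFP 1 of 43 was called, where 2.66% of features were called in either direction and 0.752% were called lower. There 27 were at an unadjusted p under 0.05 (19.9% of features), all of them lower (10.4% of features). DESeq2 called 16 there, where it called 3.52% of features, and gave no adjusted p for 9. In LMNB2 against LMNA 0 were called (background 2.01%, lower 0.268%), with 14 at an unadjusted p under 0.05 (16.4% of features), all lower (6.65%). DESeq2 called 2 (background 1.78%). In LMNB2 against LMNB1 1 was called (background 2.19%, lower 0.366%), with 6 at an unadjusted p under 0.05 (16.0% of features), all lower (6.23%). DESeq2 called 2 (background 1.91%). Of the 420 other tRNA genes tested, 50, 113 and 74 were lower at an edgeR unadjusted p under 0.05 against GFP, LMNA and LMNB1. The test over all lamins jointly called 0 alanine genes (background 1.93%), with 8 at an unadjusted p under 0.05 (16.0% of features), and DESeq2 called 2 (background 2.52%). LMNB1 against LMNA gave 0 calls (background 0.0118%), with 0 at an unadjusted p under 0.05 (5.74% of features) and 0 by DESeq2 (background 0.0295%). Its median log2 fold change was -0.42, beside -0.07 for the other tRNA genes, with 35 of 43 below 0. LMNB1 lay below LMNA without overlap for 10 genes (7.51% of features), and without the 2 libraries that stood apart the median was -0.17.

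The direction over the list was more uniform than the calls. Log2 fold changes were below 0 for 39 of the 43 genes in LMNB2 against GFP and for 43 of 43 against LMNA and against LMNB1. The 4 exceptions were the copies of AGC-9-1 and AGC-9-2 in the first block. Median log2 fold changes were -1.10, -0.98 and -0.60 against GFP, LMNA and LMNB1. The other tRNA genes had medians of -0.18, -0.40 and -0.34, and all features -0.04, -0.01 and -0.01. The groups did not overlap, with LMNB2 lower, for 21 genes against GFP (10.2% of all features), 35 against LMNA (13.5%) and 31 against LMNB1 (14.1%). Without the 2 libraries that stood apart these were 21 (20.1% of features), 36 (18%) and 31 (14.1%). The other tRNA genes shared much of this direction against LMNA and LMNB1. Of the 420 tested, 41, 237 and 176 were lower without overlap against GFP, LMNA and LMNB1. Without the 2 libraries these were 46, 251 and 176. Log2 fold changes with all libraries were below 0 for 315, 372 and 363 of the 420.

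**Figure D3:**
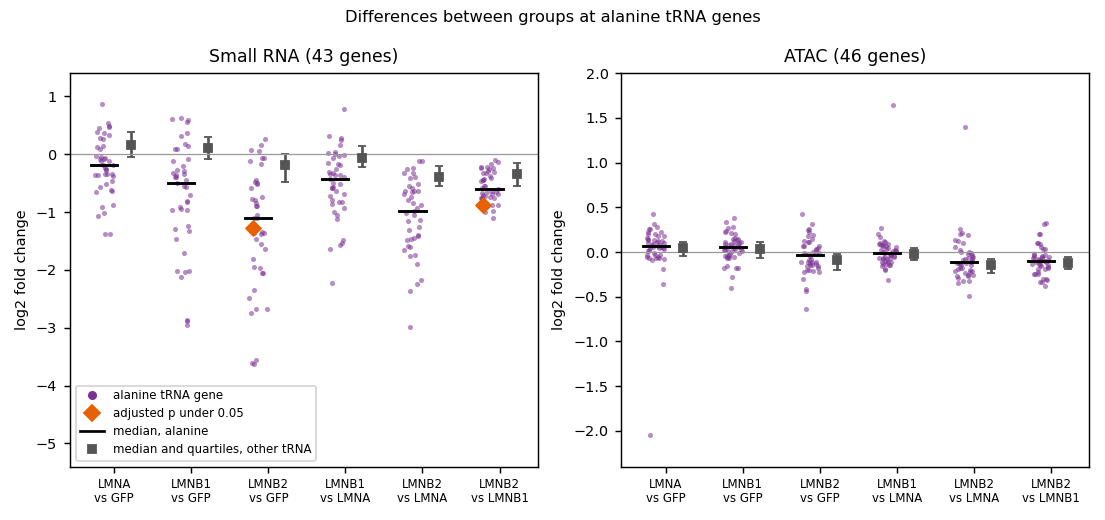
Log2 fold change of each alanine tRNA gene in each comparison, for small RNA and ATAC, with a line at their median, orange diamonds for adjusted p under 0.05, and squares with bars for the median and quartiles of the other tRNA genes. In the small RNA assay the medians of the alanine genes are -1.10, -0.98 and -0.60 for LMNB2 against GFP, LMNA and LMNB1, and in ATAC -0.04, -0.12 and -0.10.

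Without GFP replicate 3 and LMNA replicate 3, the medians for LMNB2 were -0.43, -0.68 and -0.61 against GFP, LMNA and LMNB1, but more genes passed the test. LMNB2 against GFP then had 14 alanine genes lower and 1 higher of 43, where 7.07% of features were called in either direction and 2.64% were called lower. Among the 420 other tRNA genes 3 were lower and 12 higher. LMNB2 against LMNA had 22 lower (background 5.13%, lower 2.83%), beside 41 of the other tRNA genes (9.76%). LMNB2 against LMNB1 had 19 lower (background 7.91%, lower 3.6%), beside 73 of the other tRNA genes (17.4%). LMNB1 against LMNA had 0 (background 0.0169%), and the joint test called 23 (background 7.38%). This fit was chosen after the libraries were seen to stand apart.

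In that fit 10 genes were lower in all 3 LMNB2 comparisons: AGC-2-1, AGC-3-1 #1, #2 and #3, AGC-6-1 #1, CGC-1-1 #2, TGC-1-1 #1, TGC-2-1 #1, TGC-6-1 and TGC-8-1. In total 26 genes were lower in at least 1 of them. The matching shares of all features were not counted for either number. In the single comparisons 2.64, 2.83 and 3.6% of features were called lower against GFP, LMNA and LMNB1. All 3 comparisons share the LMNB2 libraries, so some overlap of their calls is built in. The second block supplied 8 of the 15 genes called against GFP, 12 of the 22 called against LMNA and 13 of the 19 called against LMNB1. The third block supplied 1, 0 and 0. By anticodon the TGC genes supplied 5, 8 and 7 of a possible 9.

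AGC-2-1, the RefSeq gene TRA-AGC3-1 within the bounds of SCAND3, was the most abundant of those 10. It had 8.15, 7.93 and 19.8 CPM with GFP, 11.4, 5.89 and 21.0 with LMNA, 7.30, 6.58 and 6.31 with LMNB1, and 3.38, 2.96 and 3.93 with LMNB2. All 3 LMNB2 libraries lay below the other 9, and the third replicates of GFP and LMNA were high. With all libraries its log2 difference was -1.81 ± 0.45 against GFP and -1.90 against LMNA, with edgeR adjusted p of 0.0582 and 0.0564. DESeq2 with all libraries called both, with adjusted p of 0.00265 and 0.00263. In each of these comparisons 8 of 22 alternatives called AGC-2-1. Without those 2 libraries it fell by 1.19 ± 0.20 against GFP, 1.36 ± 0.20 against LMNA and 0.99 ± 0.19 against LMNB1, with edgeR adjusted p of 0.00138, 0.000635 and 0.00241.

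TGC-8-1 (chr11:50274683-50274804) was high in both libraries that stood apart, by 18.3-fold over the other replicates in GFP and 8.19-fold in LMNA. CGC-1-1 #1 had a larger excess in GFP, 24.8-fold, and a smaller one in LMNA, 4.13-fold. TGC-8-1 had 0.541, 0.456 and 9.11 CPM with GFP, 0.747, 0.538 and 5.26 with LMNA, 0.453, 0.514 and 0.429 with LMNB1, and 0.205, 0.237 and 0.391 with LMNB2. LMNB2 was again below all others. Against GFP the log2 difference of TGC-8-1 in LMNB2 was -3.61 ± 1.39 with all libraries (edgeR adjusted p of 0.205), and TGC-8-1 fell by 0.81 ± 0.23 without the 2 (adjusted p of 0.0345).

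The single call in LMNB2 against GFP was AGC-13-1 #3 (chr6:57856376-57856498, minus strand, RefSeq TRA-AGC12-3), a gene of the third block. It had 0.129, 0.140 and 0.113 CPM with GFP, 0.100, 0.055 and 0.088 with LMNA, 0.066, 0.055 and 0.093 with LMNB1, and 0.048, 0.051 and 0.057 with LMNB2. The GFP libraries were above the other 9, the only such alanine gene, a pattern seen in 0.472% of features. It fell by 1.27 ± 0.32 on the log2 scale (edgeR adjusted p of 0.0410), and by 1.32 ± 0.37 without the libraries that stood apart (adjusted p of 0.0326). The value rests on a mean of 12.75 counts a library, and on 8 counts in each LMNB2 library. AGC-13-1 #1 and #2, with mean counts of 10.67 and 12.25, were not called. The call was lost in 15 of the 21 alternatives that gave it a value, with adjusted p from 0.0326 to 0.209.

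The single call in LMNB2 against LMNB1 was AGC-1-7 #1 (chr2:27051189-27051311, plus strand, RefSeq TRA-AGC8-1), within the bounds of AGBL5. It had 3.47, 3.26 and 4.17 CPM with GFP, 2.71, 3.00 and 3.88 with LMNA, 3.87, 2.83 and 4.94 with LMNB1, and 2.36, 1.89 and 2.11 with LMNB2. Every LMNB2 library was below the other 9. It fell by 0.87 ± 0.22 against LMNB1 (edgeR adjusted p of 0.0476), and by 0.88 ± 0.17 without the libraries that stood apart (adjusted p of 0.00285). Against GFP its log2 difference was -0.78 with an edgeR adjusted p of 0.0666. There 3 of 22 alternatives called it, DESeq2 with all libraries among them (adjusted p of 0.0306). The call against LMNB1 was lost in 12 of 22 alternatives, with adjusted p up to 0.474.

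AGC-21-1 (chr6:26749887-26750009), near the midpoint of the mirrored pairs, had the lowest adjusted p in LMNB2 against LMNA. It had 0.241, 0.110 and 0.327 CPM with GFP, 0.324, 0.221 and 0.281 with LMNA, 0.229, 0.226 and 0.191 with LMNB1, and 0.145, 0.102 and 0.121 with LMNB2. LMNB2 was below LMNA and LMNB1 and overlapped GFP. The log2 difference from LMNA was -1.16, with an edgeR adjusted p of 0.0564. CGC-5-1 differed by -0.65 from LMNA and -0.67 from LMNB1, with edgeR adjusted p of 0.0811 and 0.0734. In the edgeR fit used throughout, with all libraries, these 2 genes did not pass. Against LMNA, 6 of 22 alternatives called each of them. With all libraries DESeq2 called CGC-5-1 against LMNA and LMNB1 (adjusted p of 0.0329 and 0.0347). With no count filter edgeR called AGC-21-1 against LMNA (adjusted p of 0.0014). Without the libraries that stood apart both were called lower than LMNA, with edgeR adjusted p of 0.0184 for AGC-21-1 and 0.02 for CGC-5-1, and CGC-5-1 also fell by 0.68 against LMNB1 (adjusted p of 0.0109).

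**Figure D4:**
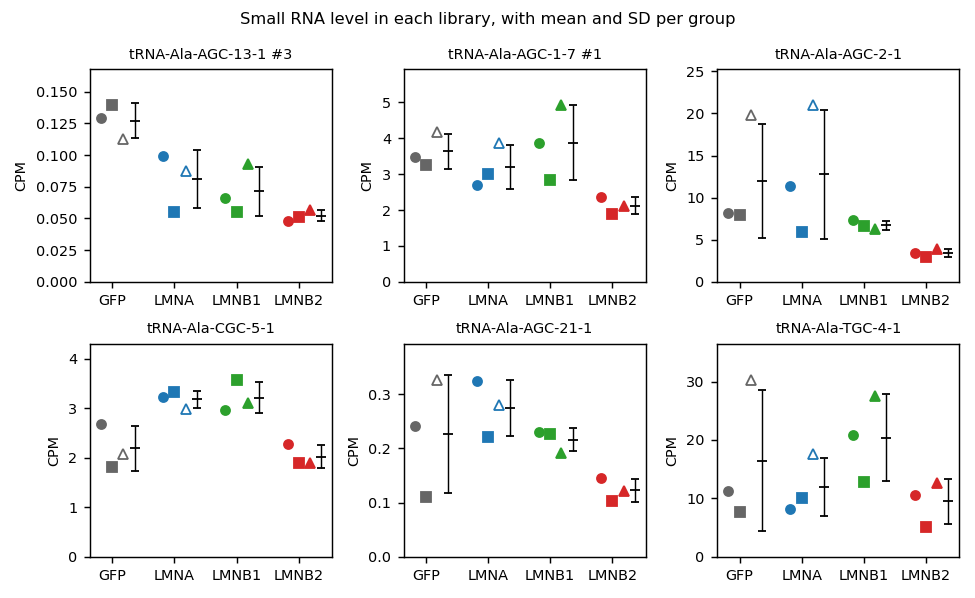
Small RNA level (CPM) of the named alanine tRNA genes in each library by group, with circles, squares and triangles for replicates 1, 2 and 3, open triangles for GFP and LMNA replicate 3, and bars for the mean ± SD (n = 3). AGC-1-7 #1 is lowest in LMNB2, at 1.89 to 2.36 CPM, and AGC-13-1 #3 is highest in GFP, at 0.113 to 0.140 CPM.

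A pair of other polymerase III and mitochondrial RNAs served for comparison. RPPH1, the RNA of RNase P, which trims the leader of tRNA precursors, ran from 21.9 to 32.4 CPM over the 12 small RNA libraries. MT-TA, the mitochondrial alanine tRNA, ran from 5.93 to 9.72 CPM. Neither was called in any small RNA comparison. Other polymerase III RNAs went both ways in LMNB2 against GFP on the log2 scale. RN7SL1 and RN7SL2 (0.60 each), RNY1 (0.55) and RNY5 (0.54) were higher, and VTRNA1-1 (-0.19) and RNU6ATAC (-0.28) lower. None of these was called there, with the lowest edgeR adjusted p at 0.113 for RN7SL2.

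At most alanine genes the ATAC counts stood above those of the surrounding DNA. The windows were 371 to 373 bp wide, running 125 bp beyond the deposited interval on each side. Their counts per kb exceeded those of the deposited 5 kb flanks by a median of 9.26-fold over the 47 genes, and 42 were above 2-fold. CGC-1-2 had the highest value, 37.5-fold, and AGC-16-1 nearly the same, 37.4-fold, although its small RNA counts were too few to test. AGC-20-1 in OTUD7B was the one gene below its 5 kb flanks over all libraries, at 0.881-fold on a mean of 5.25 counts, but at 1.65-fold in LMNB2. Against the 500 bp flanks the median was 6.63-fold with 3 genes below 1 (AGC-20-1, AGC-3-1 #2 and AGC-1-7 #2), and against the 50 kb flanks 8.37-fold with AGC-20-1 alone below 1. Block medians were 5.27 in the first, 16.3 in the second and 12.8 in the third. The called gene AGC-13-1 #3 was among the 5 genes under 2-fold, at 1.71. The copies of TGC-2-1 differed here as in their counts, at 1.68-fold on chromosome 12 and 13.1-fold on chromosome 5.

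The highest ATAC levels belonged to TGC-4-1 with a mean of 8.01 CPM, AGC-1-7 #1 with 5.55, AGC-1-1 with 4.97, AGC-1-2 with 4.23 and TGC-7-1 #1 with 4.11. The highest CGC gene was CGC-1-1 #2 with 2.56. Across the 47 genes, small RNA and ATAC levels had a Spearman correlation of 0.674, given as a description. The genes are not independent, since copies share reads and all values come from the same libraries. Within the blocks it was 0.839 over the 15 genes of the first, -0.212 over the 16 of the second and 0.714 over the 7 of the third, so the second block, with the most counts, did not follow the order.

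**Figure D5:**
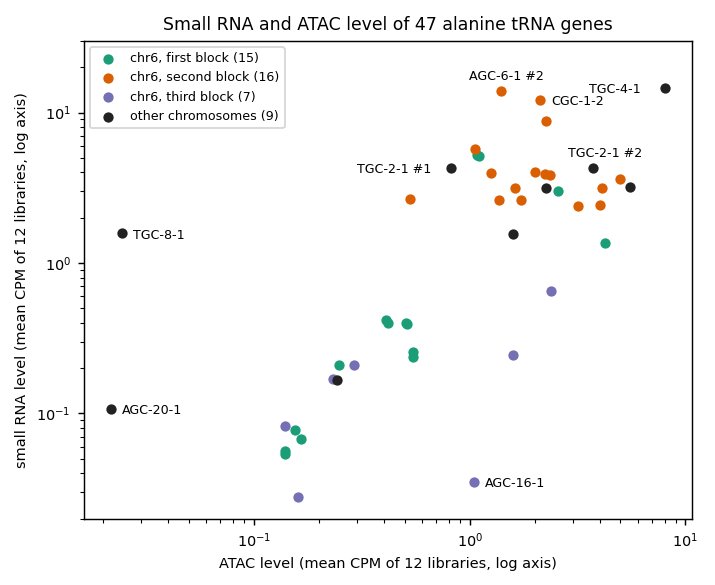
Mean small RNA level against mean ATAC level (CPM, both axes log) of the 47 alanine tRNA genes, marked by location. The levels rise together over the whole list (Spearman 0.674), while the 16 genes of the second block show no such order (-0.212).

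No alanine gene was called in ATAC in the fits of all libraries. Of the 46 tested (AGC-20-1 had too few counts), 0 were called by edgeR or DESeq2 in any comparison of these fits. However, DESeq2 gave no adjusted p for 13 to 46 of them. In LMNB1 against GFP this was all 46, so DESeq2 could call no gene there. DESeq2 called 0.0366% of windows for LMNA, 0.0379% for LMNB1 and 0.0708% for LMNB2 against GFP, 0.544% for LMNB1 against LMNA, 0.0684% and 0.0256% for LMNB2 against LMNA and LMNB1, and 0.46% jointly. The edgeR background was 0.000611% of windows for LMNA against GFP, 0.00305% for LMNB1 against GFP, 0.00244% for LMNB2 against GFP, 0.223% for LMNB1 against LMNA, 0.00305% for LMNB2 against LMNA and against LMNB1, and 0.0916% jointly. In the same order, 2, 2, 2, 0, 5 and 6 genes were at an unadjusted p under 0.05, and 5 jointly. Of all windows 5.19, 4.78, 5.72, 5.37, 7.17 and 4.98% were, and 6.24% jointly. All 6 in LMNB2 against LMNB1 were lower, beside 1.83% of windows, and all 5 in LMNB2 against LMNA, beside 3.61%. Of the 436 other tRNA genes tested, 58 were lower at that edgeR threshold against LMNB1 and 88 against LMNA. The alanine counts thus did not stand out from the other tRNA genes. The summed alanine level was 76.2 ± 6.43 CPM with GFP, 79.8 ± 7.02 with LMNA, 79.1 ± 5.97 with LMNB1 and 73.2 ± 1.25 with LMNB2 (SD, n = 3). These differences are within about the spread of the GFP libraries.

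Median log2 fold changes in ATAC were 0.07 for LMNA, 0.05 for LMNB1 and -0.04 for LMNB2 against GFP, beside 0.04, 0.03 and -0.09 for the other tRNA genes. For LMNB2 the alanine medians were -0.12 against LMNA and -0.10 against LMNB1, beside -0.15 and -0.13 for the other tRNA genes. Scaled to the other tRNA genes, the 3 LMNB2 medians were 0.071, 0.033 and 0.036, so their sign rests on the scaling. The groups did not overlap, with LMNB2 lower, for 5 genes against GFP (4.72% of windows), 8 against LMNA (8.49%) and 4 against LMNB1 (5.24%). Among the 436 other tRNA genes tested these were 50, 72 and 85.

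CGC-1-2 was the one gene with all 3 LMNB2 ATAC libraries below the other 9, a pattern seen in 0.497% of windows and in 14 of the 436 other tRNA genes tested. It had 2.24, 2.07 and 2.08 CPM with GFP, 2.38, 2.45 and 2.16 with LMNA, 2.21, 2.33 and 1.92 with LMNB1, and 1.84, 1.85 and 1.86 with LMNB2. Its log2 difference from LMNA was -0.33, with an edgeR adjusted p of 0.486. AGC-1-2 (chr6:26571839-26571961) differed by -0.29 from LMNA with the same adjusted p of 0.486 by edgeR, and at 0.0475 when only the LMNB2 and LMNA libraries were fitted.

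The other ATAC values of low unadjusted p were small in size or in count. AGC-1-7 #2 on chromosome 8, within the bounds of TRIM55, had 1.70, 1.84 and 1.76 CPM in GFP and 1.22, 1.46 and 1.29 in LMNB2. The 2 groups did not overlap, and the log2 difference was -0.41 ± 0.12 with an edgeR adjusted p of 0.815. Its copy AGC-1-7 #1, lower in the LMNB2 small RNA libraries, had an ATAC difference of -0.01 ± 0.10 from GFP and -0.11 ± 0.10 from LMNB1. TGC-2-1 #1 differed from GFP by 0.38 in LMNB1 and 0.32 in LMNA, with edgeR adjusted p of 0.978 and 0.957. AGC-3-1 #3 differed by -0.34 between LMNB2 and LMNB1, with an edgeR adjusted p of 0.933. TGC-8-1 differed by -2.04 between LMNA and GFP on a mean of only 5.75 counts. For AGC-13-1 #3 and AGC-2-1, lower in small RNA, the ATAC differences between LMNB2 and GFP were 0.11 ± 0.40 and 0.06 ± 0.11.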

How the data were processed

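Small RNA and ATAC-seq libraries of HEK293 cells were compared, 12 in each assay. The authors deposited raw counts per feature, and per window in ATAC with flanks of 500 bp, 5 kb and 50 kb, on GRCh38 per the submitters' processing notes. The aligner, counting tool, strand and treatment of multiply matching reads are not given in the sources used here. Counts were filtered (filterByExpr), scaled by TMM and tested over all features of an assay with edgeR 4.0.16 in R 4.3.3 (quasi-likelihood, robust), a mean per group, and adjusted p under 0.05 by Benjamini-Hochberg. CPM use the TMM-scaled library size. Alternatives were DESeq2 1.42.0, other filters and scalings, a replicate block and leaving out libraries. Positions were matched to RefSeq on GRCh38.p14.

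All genes were counted. Those named were called, highest in CPM (5 per assay and the highest of each anticodon), among up to 3 of lowest unadjusted p under 0.05 in each direction with groups that did not overlap, or untested where 5 or fewer. Others, among them TGC-8-1 and the genes called without 2 libraries, were named after their values were seen. The members and lists were chosen with earlier results of these data known. Tests were tried on simulated counts. Correlations of same-numbered libraries were not all above 0.1, so numbers were not taken as pairs.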

Additional observations from a re-analysis of the deposited data

How the results depend on the processing

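Among 564 alternatives for named genes, 498 kept direction and side of the threshold, 27 lost the call, 39 gained it and 0 changed sign. These genes were chosen by their p in the same data, so a kept sign was largely set by that choice. The call of AGC-13-1 #3 was lost in 15 of 21 alternatives and that of AGC-1-7 #1 in 12 of 22. Percentages are of all features called in the same fit. The counts of called genes in the small RNA libraries moved most, and apart from the removal of libraries the cause was not tested. With no count filter, 1 was called in LMNA against GFP (0.0737%), 7, 8 and 4 in LMNB2 against GFP, LMNA and LMNB1 (1.16, 0.818 and 0.595%), and 9 jointly (1.11%). DESeq2 called 16, 2 and 2 in LMNB2 (3.52, 1.78 and 1.91%) and 2 jointly (2.52%). Total counts in place of TMM called 0 in LMNB2 against GFP (0.832%) and against LMNB1 (0.18%), and a mean of at least 10 counts called 0 against LMNB1 (2.32%). Fitting only the libraries compared called 0, 10 and 26 of 41 in LMNB2 (0.0742, 10.5 and 15.5%), 1 in LMNB1 against LMNA (0.358%), 9 jointly (12%), and in ATAC 1 in LMNB2 against LMNA (0.614%). Without lncRNA features 1 was called in LMNB2 against LMNA (2.5%) and 0 against LMNB1 (2.22%). Scaled to the other tRNA genes, 2, 2 and 0 were called in LMNB2 (0.941, 5.74 and 3.96%) and 1 jointly (6.1%). The median of all small RNA features then moved to 0.37 in LMNB2 against LMNA and 0.31 against LMNB1, beside alanine medians of -0.60 against LMNA and -0.28 against LMNB1, and ATAC medians for LMNB2 of 0.071, 0.033 and 0.036. Total counts gave ATAC medians of 0.24 in LMNB1 and 0.070 in LMNB2 against GFP, and -0.18 in LMNB2 against LMNB1. The fit with a replicate block called 4 in LMNB2 against GFP (2.15%), 3 against LMNA (1.67%) and 1 jointly (1.64%). Same-numbered libraries correlated between -0.048 and 0.262 in small RNA. The highest values were between GFP and LMNA, at 0.262 for replicate 2 and 0.245 for replicate 3. Whether such libraries share more than a number is not given in the labels.

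Leaving out 1 library at a time called 0 to 2 genes in LMNA against GFP, 0 to 1 in LMNB1, 0 to 2 in LMNB2, 0 to 15 in LMNB2 against LMNA, 0 to 4 against LMNB1 and 0 to 11 jointly, with the upper ends for LMNA, LMNB1, LMNB2 against LMNA and LMNB1, and jointly reached without GFP replicate 3. Small RNA medians ran from -0.52 to 0.72 in LMNA, -0.76 to 0.15 in LMNB1 and -1.36 to -0.43 in LMNB2 against GFP, and -1.12 to -0.67 in LMNB2 against LMNA. The ATAC median for LMNB2 against GFP ran from -0.15 to 0.014. Without GFP and LMNA replicate 3 together, calls were 1, 1 and 15 against GFP for LMNA, LMNB1 and LMNB2, 22 and 19 in LMNB2 against LMNA and LMNB1, and 23 jointly, with medians of 0.15 in LMNB1 and -0.43 in LMNB2 against GFP and -0.68 in LMNB2 against LMNA. The 4 genes with too few small RNA counts to test had mean counts as low as 4.33.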
